A study of Homo sapiens with 1536 samples.

Results

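Topotecan, Doxorubicin, Mitoxantrone and Etoposide are the 4 compounds of the screen described here, chosen by name as topoisomerase poisons. They account for 32 of 1536 wells and for 4 of the 180 compounds screened. Compounds left out for low reads have no deposited relative cell numbers and were not analysed here. Each well held a pool of 5 breast cancer cell lines: ZR-75-1, an estrogen receptor-positive line, SKBR3, a HER2-amplified line, and BT-20, HCC-38 and MDA-MB-231, which are triple-negative. Every line carried doxycycline-inducible Cas9 and 12 kinds of guide RNA, of which 11 target a gene and 1 is a pool of non-targeting guides (sgNT), and all pools, DMSO wells included, grew in 100 ng/mL doxycycline for 7 days before treatment. Each compound was given for 72 h at 10, 100, 1000 and 10000 nM in 2 replicate wells, beside 96 wells with DMSO. The lines shared a well, so their values in a well are not independent of each other. Nothing in the labels says that the 2 wells came from separate cultures, and p-values measure only the spread between such wells.

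Topoisomerases relieve the twisting strain of DNA by cutting it, letting strands pass and closing the cut again. Topoisomerase I cuts 1 strand and topoisomerase II cuts both, and a poison traps the enzyme on the cut DNA, so that replication and transcription run into a break. Topotecan, an analog of the plant alkaloid camptothecin, traps topoisomerase I. Etoposide, an epipodophyllotoxin, traps topoisomerase II without inserting itself between bases. Doxorubicin, an anthracycline with an amino sugar, and Mitoxantrone, an anthracenedione with a pair of basic side chains and no sugar, both insert between bases and poison topoisomerase II. These drugs are established agents against cancers, and anthracyclines are widely used in breast cancer.

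Cells were counted through DNA: a cell line barcode of 8 bases was read together with the guide, and the reads were turned into cells through human embryonic kidney cells with a barcode of their own, added in known numbers as standards. The barcodes that tell the lines apart are shown because every value below is a count of reads that carry one of them. The capitals mark the whole barcode.

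ZR-75-1: ATCACTGG

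SKBR3: CGGTGACC

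HCC-38: TACAGAGG

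MDA-MB-231: TAACAGTT

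BT-20: ATTGTCAA

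The barcodes of ZR-75-1 and HCC-38 were the closest, with 4 differing bases, and each of the others differed from every barcode, that of the standards included, by at least 6. The relative cell number is the cell number of a line and guide in percent of its median over the DMSO wells. Here a line's value in a well is the mean over its guides, without 2 guides in ZR-75-1 that the study's methods leave out there. DMSO wells spread around 100% with a SD of 10.6 to 14.3 percentage points, and the lowest of the 96 lay between 64.3% in ZR-75-1 and 84.3% in HCC-38. The wells of the 4 compounds held 46991 to 1285895 reads in all and 8741 to 133963 reads of the standards. Reads on barcode pairs that were never made came to 0.0981% to 0.689% of a well, within the 0.0824% to 0.924% of DMSO wells. Of 1856 single guide values, 47 lay below the lowest standard of 15 cells and rest on extrapolation. Of these, 25 belonged to Mitoxantrone, 11 to Topotecan, 9 to Doxorubicin and 2 to Etoposide.

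Cell numbers fell in every line under all 4 compounds. Of the 80 combinations of compound, line and dose, 71 lay below DMSO in limma (adjusted p under 0.05 over all compounds), or 88.8%, against 33.5% of all combinations in the screen. Each mean was tested against a fixed 100%, so the spread of the DMSO wells did not enter. Lines that shared a well were counted as separate values. Mitoxantrone and Topotecan passed at 19 of 20 combinations, Etoposide at 18 and Doxorubicin at 15. In 68 of the 80 both replicates lay below the lowest DMSO well of the line. The combinations that did not pass were BT-20 at 10 nM Topotecan, all 5 lines at 10 nM Doxorubicin, BT-20 at 10 nM Mitoxantrone, and HCC-38 and BT-20 at 100 nM Etoposide.

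**Figure D1:**
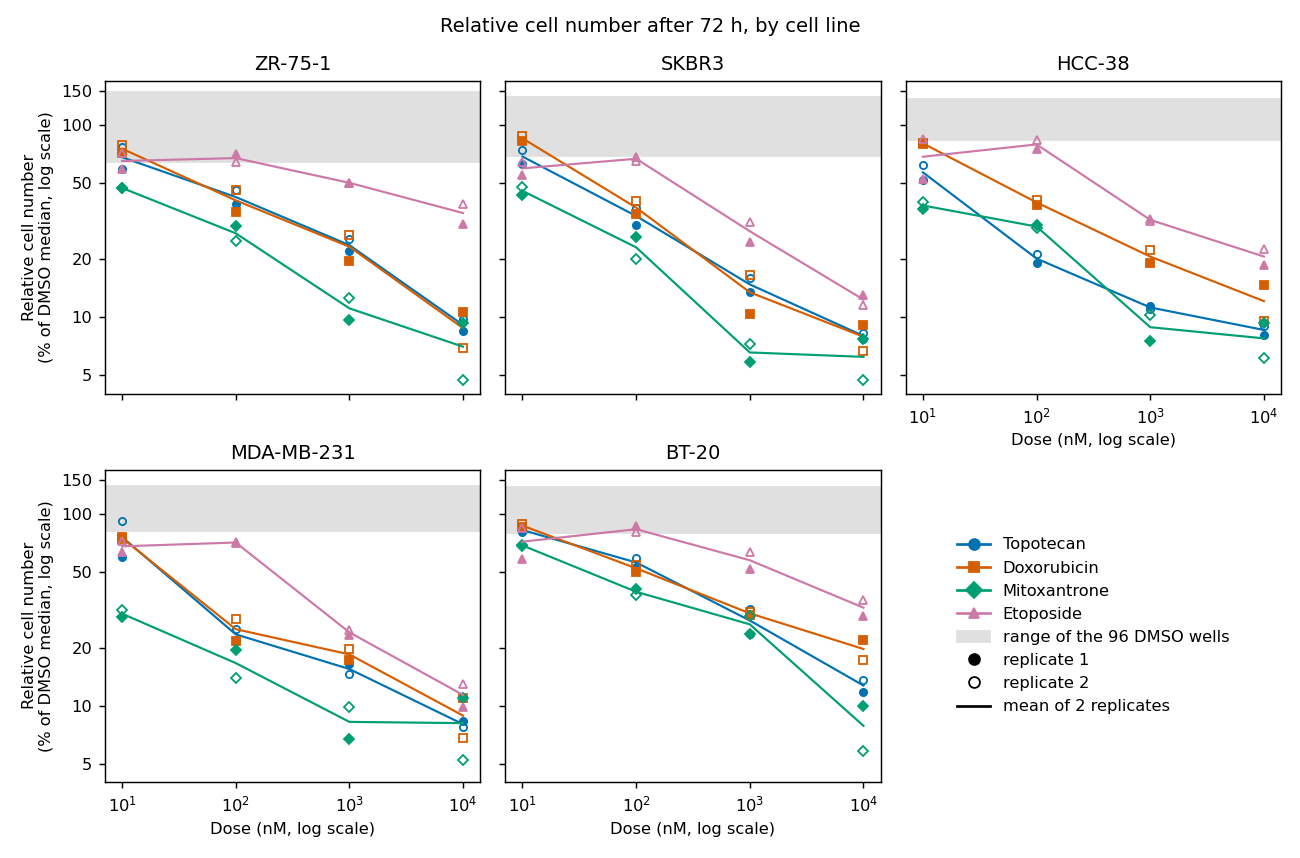
Relative cell number (percent of the DMSO median, log scale) against dose (nM, log scale) in 5 cell lines. Filled and open symbols are the 2 replicates, lines join their means, and the grey band spans the 96 DMSO wells. Mitoxantrone is the lowest curve at 10 nM in all 5 lines, and Etoposide stays at 66.9% to 83.1% at 100 nM, where the other compounds lie between 16.7% and 55.8%.

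Topotecan lowered all 5 lines in steps from 10 nM to 10000 nM. At 10 nM the replicate wells stood at 51.6% and 62.1% in HCC-38, at 59.2% and 77.1% in ZR-75-1, at 62.8% and 74.6% in SKBR3, at 59.2% and 92.1% in MDA-MB-231 and at 80.1% and 84.3% in BT-20. HCC-38 was the lowest line and BT-20 the highest, and replicate 1 was the lower well in all 5 lines. At 100 nM the line means ran from 20.2% ± 1.52 (SD, n = 2) in HCC-38 to 55.8% ± 3.90 (SD, n = 2) in BT-20. At 1000 nM they ran from 11.2% in HCC-38 to 27.8% in BT-20, and at 10000 nM from 7.99% in SKBR3 to 12.7% in BT-20. Of the 15 steps to the next dose, 14 passed as a fall, against 26.2% of all steps in the screen; the step of HCC-38 from 1000 to 10000 nM did not (log2 change -0.39).

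Doxorubicin had a mild effect at 10 nM and a steep one by 100 nM. At 10 nM the line means ran from 74.7% (MDA-MB-231) to 86.7% (BT-20), and no line passed the test, although both wells of HCC-38 and of MDA-MB-231 lay below every DMSO well. The spread that enters this test is pooled over the lines and doses of a compound, and the 10000 nM wells of Doxorubicin differed most. At 100 nM the replicates stood at 21.8% and 28.3% in MDA-MB-231, the lowest line, and at 49.7% and 54.2% in BT-20, the highest. At 1000 nM SKBR3 was the lowest line, with 10.4% and 16.6%, and BT-20 the highest, with 29.8% and 30.8%. At 10000 nM SKBR3 stood at 9.16% and 6.67% and BT-20 at 22.1% and 17.4%. Replicate 2 was the lower well in all 5 lines at this dose, by a median of 0.62 on the log2 scale. The step from 10 to 100 nM passed in 5 of 5 lines, with log2 changes of -1.59 in MDA-MB-231 to -0.74 in BT-20.

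Mitoxantrone was already strong at the lowest dose. At 10 nM the wells stood at 28.9% and 31.4% in MDA-MB-231, at 36.7% and 39.7% in HCC-38, at 43.3% and 47.8% in SKBR3, at 47.4% and 46.9% in ZR-75-1 and at 67.97% and 68.8% in BT-20. No 2 lines overlapped except ZR-75-1 and SKBR3, and BT-20 alone stayed above 50%. At 1000 nM SKBR3 had fallen to 5.84% and 7.27% while BT-20 still held 23.7% and 29.4%. At 10000 nM the lines had come together, with means from 6.22% in SKBR3 to 8.11% in MDA-MB-231, and BT-20 stood at 9.91% and 5.80%. The step from 1000 to 10000 nM passed as a fall in BT-20 alone (log2 change -1.80), and the other 4 lines gave -0.73 to -0.09. At 10000 nM replicate 2 was the lower well in all 5 lines, by a median of 0.77 on the log2 scale. The log-log standard curves of these 2 wells had slopes of 1.34 and 1.05, and their part in the difference was not tested.

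Etoposide was the weakest of the 4 compounds from 100 nM upwards, and its curve did not fall from the first dose to the second. At 10 nM the replicates stood at 54.8% and 64.5% in SKBR3, at 58.98% and 71.3% in ZR-75-1, at 63.3% and 72.1% in MDA-MB-231, at 52.4% and 84.7% in HCC-38 and at 58.4% and 84.7% in BT-20. Replicate 1 was the lower well in all 5 lines, and the geometric means over the lines were 57.5% and 75.01%. At 100 nM they were 73.8% and 72.6%. The step from 10 to 100 nM was above 0 in every line, with log2 changes of 0.06 to 0.25, and passed the test in neither direction in any line. Against the 6 DMSO wells of the same plate, the means over lines were 64.97% at 10 nM and 76.9% at 100 nM, so that no fall was seen by this reference either. At 1000 nM the lines split: MDA-MB-231 stood at 23.3% and 24.9%, SKBR3 at 24.6% and 31.5% and HCC-38 at 32.5% and 31.8%, while ZR-75-1 held 50.3% and 49.99% and BT-20 51.5% and 62.9%. At 10000 nM MDA-MB-231 stood at 9.80% and 12.97% and ZR-75-1, now the highest line, at 30.7% and 39.1%.

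The dose at which a line reached 50% was read off by log-linear interpolation between neighbouring doses, in each replicate. It was under 10 nM for Mitoxantrone in ZR-75-1, SKBR3, HCC-38 and MDA-MB-231, and 39.6 and 34.04 nM in BT-20. For Topotecan it ran from 10.7 and 15.9 nM in HCC-38 to 117.96 and 182.6 nM in BT-20. For Doxorubicin it ran from 21.4 and 25.7 nM in MDA-MB-231 to 97.8 and 138.9 nM in BT-20. Etoposide needed 202.4 and 233.6 nM in SKBR3, 204.4 and 216.8 nM in MDA-MB-231, 304.8 and 342.4 nM in HCC-38, 1026.4 and 999.05 nM in ZR-75-1 and 1131.6 and 2531.2 nM in BT-20. In each line Etoposide therefore took the highest dose of the 4 compounds and Mitoxantrone the lowest, and the replicates of those 2 compounds did not overlap with the rest.

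Compounds were then compared at matched doses over the mean of the 5 lines in each well, in 6 pairs at 4 doses. In limma 16 of these 24 differences passed (adjusted p under 0.05), against 44.2% of all pairs and doses in the screen. From 100 nM upwards Topotecan and Doxorubicin differed least of the 6 pairs, while at 10 nM Topotecan and Etoposide did. For Topotecan and Doxorubicin the differences in log2 relative cell number were -0.22, -0.21, -0.21 and -0.22 from the lowest to the highest dose, with none passing (adjusted p 0.331 to 0.357). The intervals do not show that the 2 drugs act alike. At 100 nM the 95% interval of the ratio of Topotecan to Doxorubicin ran from 0.683 to 1.10, and at 10000 nM from 0.679 to 1.09. At 10000 nM the difference was 0.06 without replicate 1 of Doxorubicin and -0.49 without its replicate 2, where it passed (adjusted p = 0.0257).

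Etoposide left more cells than each of the other 3 compounds at 100, 1000 and 10000 nM. Against Topotecan it left 2.24-fold, 2.06-fold and 2.19-fold as many at these doses (adjusted p 4.36e-07 to 2.21e-06), and against Doxorubicin 1.94-fold, 1.78-fold and 1.89-fold as many (adjusted p 4.36e-05 to 0.000233). Against Mitoxantrone it left 2.81-fold, 3.41-fold and 2.83-fold as many (adjusted p 8.15e-08 to 1.04e-06). At 10 nM Etoposide and Topotecan differed by 0.08 on the log2 scale (95% interval -0.23 to 0.38) and Doxorubicin and Etoposide by 0.29 (interval -0.06 to 0.64), with Etoposide the lower in both, and neither passed. On the percent scale the 10000 nM differences did not pass, with adjusted p of 0.129 against Topotecan, 0.182 against Doxorubicin and 0.0604 against Mitoxantrone. At 10 nM Etoposide lay above Mitoxantrone, 1.49-fold (adjusted p = 0.0220). Without replicate 2 of Etoposide this 10 nM difference did not pass (log2 difference -0.38 for Mitoxantrone minus Etoposide).

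**Figure D2:**
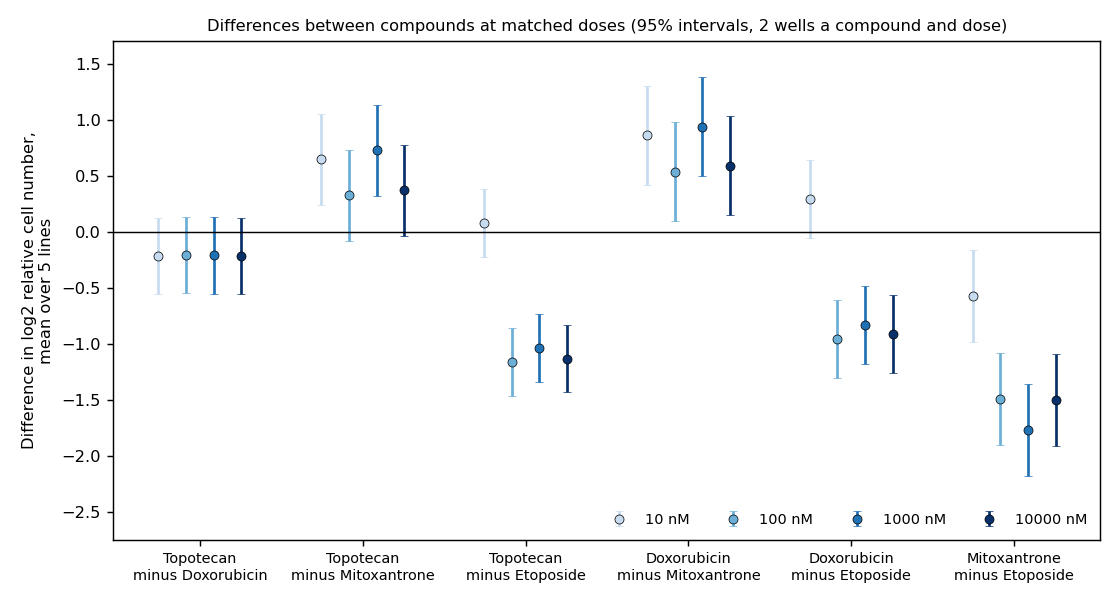
Difference in log2 relative cell number (mean over 5 lines, first minus second compound) for 6 pairs at 4 doses, with 95% intervals. A value of -1 means that the first compound left 0.5-fold as many cells as the second. The pair of Topotecan and Doxorubicin lies between -0.22 and -0.21 at all doses, and the 3 pairs with Etoposide lie below 0 from 100 nM upwards.

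Doxorubicin and Mitoxantrone both insert into DNA and poison topoisomerase II, but the first carries a sugar on its ring system and the second side chains and no sugar. Mitoxantrone left fewer cells at every dose. The Doxorubicin wells held 1.82-fold, 1.45-fold, 1.92-fold and 1.504-fold as many cells as the Mitoxantrone wells from the lowest to the highest dose (adjusted p 0.00167, 0.0453, 0.000748 and 0.0275). The 100 nM difference did not pass in 7 other fits: its adjusted p was 0.208 without replicate 2 of Doxorubicin, 0.119 without replicate 2 of Mitoxantrone, 0.193 with sgNT alone, 0.0596 with all 12 guides in ZR-75-1, 0.0599 with the median over guides, 0.0611 with DMSO wells of the same plate and 0.104 on the percent scale. On that scale the 1000 and 10000 nM differences did not pass either (adjusted p 0.218 and 0.605). The 10000 nM difference did not pass without replicate 1 of Doxorubicin (adjusted p = 0.362) or replicate 2 of Mitoxantrone (adjusted p = 0.557). Topotecan also lay above Mitoxantrone, 1.57-fold at 10 nM (adjusted p = 0.00881) and 1.66-fold at 1000 nM (adjusted p = 0.00357). At 100 and 10000 nM the ratios of 1.26 (95% interval 0.947 to 1.66) and 1.29 (interval 0.976 to 1.71) did not pass. On the percent scale the 1000 nM difference did not pass (adjusted p = 0.439). The 10 nM difference had an adjusted p of 0.140 without replicate 2 of Topotecan. Without replicate 1 of Mitoxantrone the log2 differences at 100 and 10000 nM were 0.45 and 0.78 and passed, and without its replicate 2 the last was -0.04.

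Line by line, 62 of the 120 pair differences passed, against 42% of all pairs, lines and doses in the screen. Mitoxantrone lay below Etoposide at 16 of 20 combinations of line and dose, Topotecan below Etoposide at 15 and Doxorubicin below Etoposide at 13, with none the other way. In the screen 21.5% of such differences passed with the first compound lower and 20.5% with it higher. Mitoxantrone lay below Doxorubicin at 9 and below Topotecan at 6, and Topotecan lay below Doxorubicin at 3. With the replicate number as a block, which marks the plate that the wells of a dose share, these last 3 pairs differed, counted in either direction, at 18, 13 and 5. Without replicate 1 of Mitoxantrone the pairs with Doxorubicin and Topotecan passed at 15 and 13 combinations, and without replicate 1 of Topotecan its pair with Mitoxantrone passed at 3. The largest difference of Mitoxantrone from Etoposide was -2.38 in log2 and that of Doxorubicin from Etoposide -2.02, both in ZR-75-1 at 10000 nM. Topotecan differed most from Etoposide in HCC-38 at 100 nM (-1.98), followed by ZR-75-1 at 10000 nM (-1.93). In ZR-75-1 the highest Etoposide dose left 30.7% and 39.1% in the replicates, where Topotecan left 8.49% and 9.74%, Doxorubicin 10.7% and 6.88% and Mitoxantrone 9.32% and 4.73%.

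The AUC, an area under the curve of response against dose, adds the relative cell numbers of the 4 doses with weights 0.5, 1, 1 and 0.5, so that a compound without effect gives 300. By this measure 25 of 30 pair differences passed, against 64.1% of all pairs and lines. Mitoxantrone gave the lowest AUC in every line, from 44.1 ± 2.89 (SD, n = 2) in MDA-MB-231 to 103.9 ± 0.783 (SD, n = 2) in BT-20, and among all compounds it ranked 1st from the bottom in MDA-MB-231 and 3rd in ZR-75-1 and HCC-38. Etoposide gave the highest of the 4, from 130.97 ± 5.72 (SD, n = 2) in SKBR3 to 192.3 ± 15.6 (SD, n = 2) in BT-20. Doxorubicin ran from 85.3 ± 4.61 (SD, n = 2) in MDA-MB-231 to 135.5 ± 3.20 (SD, n = 2) in BT-20, and Topotecan from 64.2 ± 5.28 (SD, n = 2) in HCC-38 to 131.02 ± 12.1 (SD, n = 2) in BT-20.

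**Figure D3:**
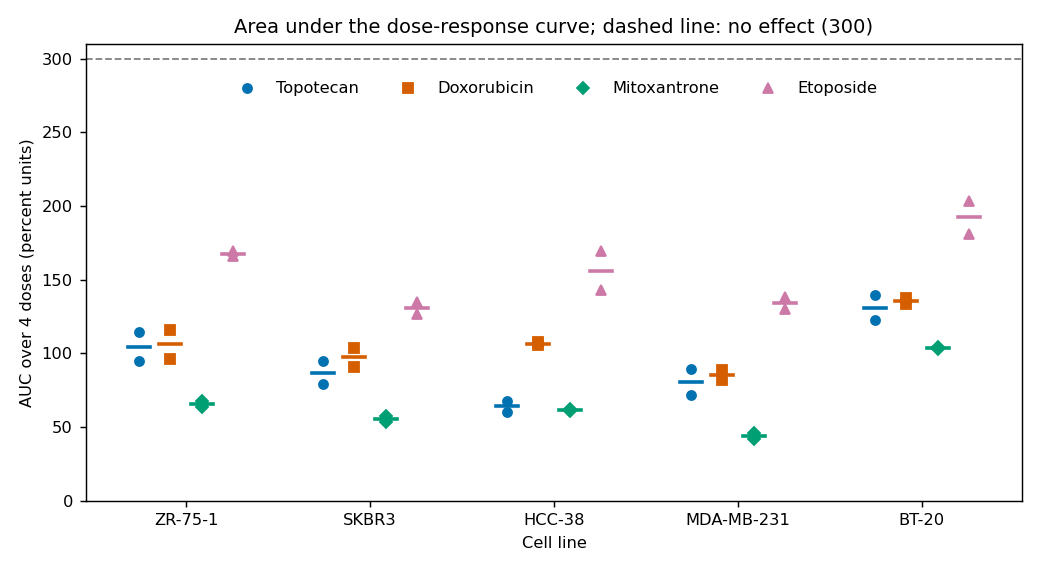
AUC over 4 doses (percent units) by cell line for the 4 compounds. Points are the 2 replicates, short bars their means, and the dashed line marks the 300 of a compound without effect. Etoposide is the highest compound in all 5 lines, BT-20 is the highest line for all 4 compounds, and Topotecan and Mitoxantrone meet in HCC-38 at 64.2 and 61.5.

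Topotecan, the only topoisomerase I poison among the 4, was set against the mean of the 3 topoisomerase II poisons. This compares 1 compound with 3, not the enzyme classes. Topotecan lay within the range of the 3 at 19 of 20 combinations of line and dose, and below all 3 at 1, HCC-38 at 100 nM. In limma 5 of the 20 differences passed, where 91.9% of all compounds, lines and doses differed from the mean of these 3 drugs, 3.71% as lower and 88.2% as higher. The same wells of the 3 drugs entered every such test. The spread was taken as common to all compounds, so the SE of 0.21 is not specific to Topotecan's own wells. Adjustment changed p little, as in MDA-MB-231 at 10 nM, from 0.0258 to 0.0285 in limma. Topotecan was the lower one in HCC-38 at 100 nM (20.2% against 45.4%, log2 difference -1.17 ± 0.21 SE), at 1000 nM (11.2% against 17.99%, -0.68) and at 10000 nM (8.57% against 12.3%, -0.52), and in ZR-75-1 at 10000 nM (9.09% against 12.5%, -0.46). It was the higher one in MDA-MB-231 at 10 nM (73.8% against 53.4%, 0.47). The count was 8 with the replicate block and 3 without replicate 1 of Topotecan.

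HCC-38 was the line in which Topotecan lay farthest below the mean of the topoisomerase II poisons, although not below Mitoxantrone. Its AUC there was 60.4 and 67.9 in the replicates, against a mean of 108.1 over the 3 topoisomerase II poisons, a difference of -44.0 ± 7.70 SE (adjusted p = 1.30e-06, against 96.9% of compounds and lines that differed from that mean). In the other 4 lines the difference was -12.9 in BT-20, -8.41 in ZR-75-1, -7.80 in SKBR3 and -7.05 in MDA-MB-231, and did not pass. The BT-20 difference passed with the replicate block, without replicate 2 of Topotecan (-21.4) and without replicate 1 of Etoposide (-16.6). Against Doxorubicin alone, Topotecan's AUC was lower by 42.5 in HCC-38 (95% interval -65.5 to -19.4, adjusted p = 0.00264) and the other 4 lines gave -10.6 to -1.39. Against Mitoxantrone it was higher in ZR-75-1, SKBR3, MDA-MB-231 and BT-20, by 27.1 to 39.1 units, and differed by 2.63 in HCC-38 (interval -18.7 to 23.9). The number of lines that differed from Mitoxantrone was 1 without replicate 2 of Topotecan, 1 without replicate 2 of Mitoxantrone and 2 without its replicate 1. Against Etoposide Topotecan was lower in every line, by 92.1 in HCC-38 and by 44.1 to 62.9 elsewhere.

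Whether the HCC-38 difference was itself larger than that of the other lines was tested after these values were seen, for all pairs and lines. For Topotecan minus Doxorubicin, HCC-38 lay 37.2 AUC units below the mean of the other 4 lines (SE 12.2, adjusted p = 0.0461), the only one of 30 such differences among the 4 compounds that passed, against 16.8% in the screen. Topotecan minus Mitoxantrone gave -31.0 (adjusted p = 0.0713) and Topotecan minus Etoposide -36.6 (adjusted p = 0.0709). With the replicate block both passed (adjusted p 0.0307 and 0.00744), as they did with the mean log2 over doses in place of the AUC (0.00581 and 0.00359). The Doxorubicin value lay between -42.3 and -32.2 when 1 replicate of either compound was left out and passed in none of these 4 fits (adjusted p 0.0727 to 0.214), and its adjusted p was 0.0874 with DMSO wells of the same plate, 0.0526 with all 12 guides in ZR-75-1 and 0.685 with sgNT alone (-33.5).

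**Figure D4:**
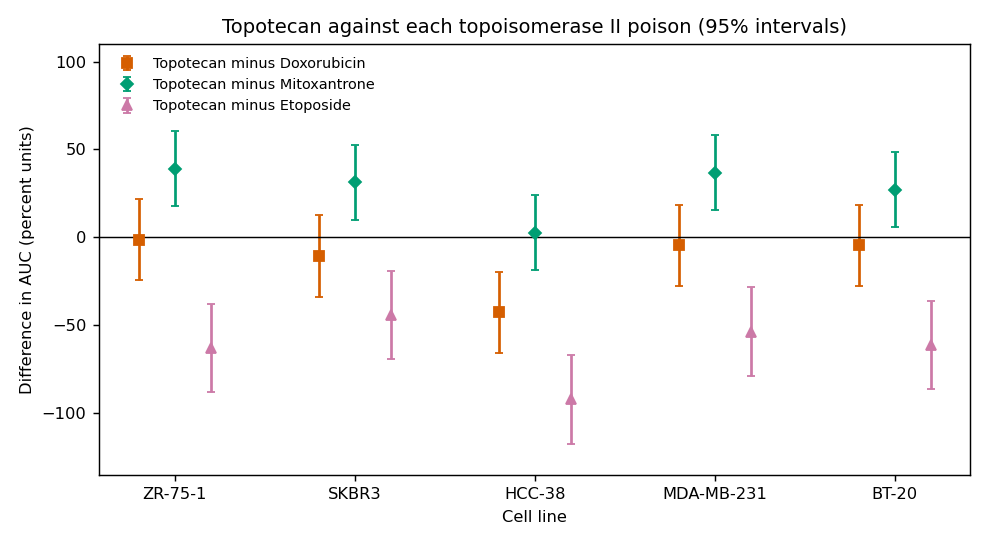
Difference in AUC (percent units) between Topotecan and each topoisomerase II poison by cell line, with 95% intervals. All 3 differences are lowest in HCC-38, at -42.5 against Doxorubicin, 2.63 against Mitoxantrone and -92.1 against Etoposide.

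BT-20 kept the most cells under all 4 compounds. Each line's AUC was tested against the mean of the other 4 lines, a test that 22.1% of all compounds and lines passed in the screen. BT-20 lay above the other lines by 46.9 for Topotecan, 36.6 for Doxorubicin, 47.2 for Mitoxantrone and 44.99 for Etoposide (adjusted p 0.000902 to 0.00750), and its 2 wells did not overlap with those of the next line for any of them. MDA-MB-231 lay below the others for Doxorubicin (-26.1, adjusted p = 0.0345) and Mitoxantrone (-27.6, adjusted p = 0.00967), HCC-38 for Topotecan (-36.7, adjusted p = 0.0173) and SKBR3 for Etoposide (-31.7, adjusted p = 0.0345). MDA-MB-231 under Etoposide, at -27.3, did not pass (adjusted p = 0.0576). With 1 replicate of a compound left out, the sizes stayed between 33.7 and 50.2 for BT-20 but none of these 8 calls passed, and none passed with sgNT alone (adjusted p 0.156 to 0.658). MDA-MB-231 under Doxorubicin also did not pass with DMSO wells of the same plate (adjusted p = 0.0774), nor SKBR3 under Etoposide with the median over guides (adjusted p = 0.0691). From the lowest AUC upwards the lines ran HCC-38, MDA-MB-231, SKBR3, ZR-75-1 and BT-20 for Topotecan, where MDA-MB-231 and SKBR3 overlapped. The order was MDA-MB-231, SKBR3, ZR-75-1, HCC-38 and BT-20 for Doxorubicin, where ZR-75-1 overlapped with both of its neighbours. It was MDA-MB-231, SKBR3, HCC-38, ZR-75-1 and BT-20 for Mitoxantrone, with no overlap, and SKBR3, MDA-MB-231, HCC-38, ZR-75-1 and BT-20 for Etoposide, where SKBR3 overlapped with MDA-MB-231 and HCC-38 with ZR-75-1.

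The makeup of the pool moved with these differences. In DMSO wells BT-20 made up 16.3% ± 0.821 (SD, n = 96) of the cells and HCC-38 39.9% ± 2.17 (SD, n = 96). Under 1000 nM Mitoxantrone the share of BT-20 was 38.99% and 36.4% in the replicates, above every DMSO well, and it was 18.2% and 17.2% at 10000 nM. Under Topotecan HCC-38 made up 25.03% and 25.5% of the pool at 100 nM, below every DMSO well, and stood at 37.1% and 37.5% at 10000 nM. Under Doxorubicin HCC-38 kept 38.1% to 41.1% of the pool at all doses. ZR-75-1 made up 11.7% ± 1.04 (SD, n = 96) of DMSO wells and 19.3% and 19.8% under 10000 nM Etoposide, and MDA-MB-231 15.3% ± 0.962 (SD, n = 96) and 7.25% and 8.50%. All wells of the highest dose held few cells: the estimated total over the 5 lines was 1690 to 2683 cells for Mitoxantrone, 2562 to 2808 for Topotecan, 2843 to 3992 for Doxorubicin and 5794 to 6685 for Etoposide, against a median of 29689 in DMSO wells. Shares add up to the whole, so a share that rises says that the line lost less than the rest, not that it grew.

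The screen held 1 more compound of the Etoposide family and 1 of the Topotecan family. Teniposide differs from Etoposide by a thienyl group in place of a methyl group on the sugar. At 10 nM its line means ran from 78.1% in ZR-75-1 to 98.8% in BT-20, and the mean over lines lay above that of Etoposide, which had 0.754-fold as many cells (adjusted p = 0.0328). At 100 nM the order was the other way: Teniposide had fallen to 60.1% in BT-20 and 29.5% in MDA-MB-231, and Etoposide left 1.77-fold as many cells (95% interval 1.42 to 2.202, adjusted p = 8.11e-05). Etoposide left 1.29-fold as many at 1000 nM (interval 1.04 to 1.61, adjusted p = 0.0519, and between 0.0200 with sgNT alone and 0.0470 with summed cells in 5 other fits, the replicate block among them) and 1.32-fold as many at 10000 nM (interval 1.06 to 1.64, adjusted p = 0.0360). The 10 nM difference did not pass without replicate 1 of Etoposide (adjusted p = 0.396), with sgNT alone (0.418) or with the median over guides (0.0519). The 10000 nM difference did not pass without replicate 2 of Etoposide (adjusted p = 0.237), with sgNT alone (0.547), with all 12 guides in ZR-75-1 (0.0771), with the median over guides (0.0790), with DMSO wells of the same plate (0.0686) or on the percent scale (0.523). By line and dose, Etoposide lay above Teniposide at 9 of 20 combinations and below at 2, and 7 passed without either replicate of Etoposide. In AUC the pair differed in ZR-75-1 (42.2), MDA-MB-231 (38.9) and HCC-38 (33.4), and with the replicate block in all 5 lines. Over all pairs of the screen 42% of the tests by line and dose passed, and 64.1% of those in AUC. These counts are therefore not far from those of any pair of compounds. The 2 drugs lay on different plates, so compound and plate can be told apart only through the DMSO wells.

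**Figure D5:**
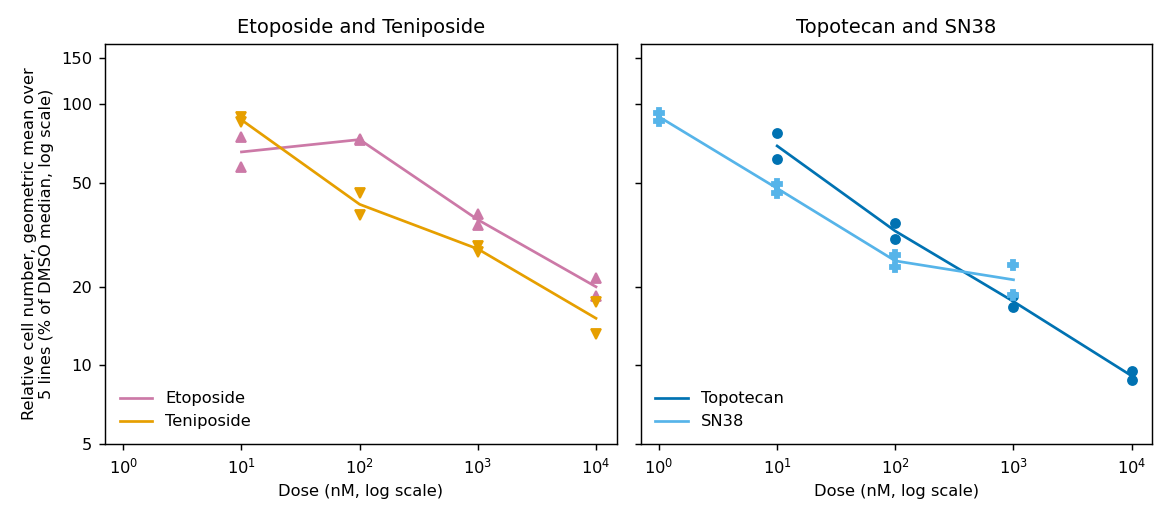
Geometric mean over 5 lines of relative cell number (percent of the DMSO median, log scale) against dose (nM, log scale) for Etoposide and Teniposide and for Topotecan and SN38. Points are the 2 replicates and lines join their geometric means. Etoposide lies below Teniposide at 10 nM and above it at 100 nM, and SN38 was given at doses 10-fold lower than Topotecan.

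SN38, the active form of the camptothecin drug irinotecan, was given at 1, 10, 100 and 1000 nM, so no test was made against Topotecan. At 10 nM its line means ran from 33.5% (MDA-MB-231) to 79.7% (BT-20), where Topotecan had 56.9% in HCC-38 to 82.2% in BT-20. At 100 nM SN38 had 16.8% in HCC-38 to 39.7% in BT-20 and Topotecan 20.2% to 55.8% in the same lines. At 1000 nM SN38 had 14.2% to 31.2% and Topotecan 11.2% to 27.8%, again from HCC-38 to BT-20. For SN38, too, BT-20 lay above the other lines (62.9 AUC units, adjusted p = 0.000329) and HCC-38 (-26.4) and MDA-MB-231 (-30.8) below them.

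As a description of likeness, the root mean square difference in log2 relative cell number over the 20 combinations of line and dose was taken between each compound and every other given at the same doses. Doxorubicin was nearest to Topotecan (0.38) and the reverse held too, followed for Topotecan by Clofarabine (0.63), a purine nucleoside analog, and Teniposide (0.66), and for Doxorubicin by Teniposide (0.46) and Clofarabine (0.60). Nearest to Mitoxantrone were Topotecan (0.66), Doxorubicin (0.82) and PF3758309 (0.91), a kinase inhibitor. Nearest to Etoposide were MK1775 (0.38), an inhibitor of the kinase WEE1, PHA793887 (0.48), an inhibitor of cyclin-dependent kinases, and Tivantinib (0.51). Teniposide followed in 4th place (0.56), and the value was 1.48 for Mitoxantrone, the farthest from Etoposide of the other 3 members.

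The guides allow the same comparison within a line, between a knockout and sgNT. Of the 20 pairs of line and compound, 18 met the study's criteria for this. Mitoxantrone in MDA-MB-231 and Etoposide in ZR-75-1 did not, since sgNT cells differed by only 14.1 and 24.6 percentage points between the lowest and the highest dose, where 25 are asked for. They gave 53 AUC differences for Topotecan, 53 for Doxorubicin, 42 for Mitoxantrone and 44 for Etoposide. In limma none of these passed (lowest adjusted p 0.214), against 0.0777% in the screen, and 6 had an unadjusted p under 0.05. By the thresholds of the study's methods, an AUC difference over 25 and the methods' t-test without adjustment, 4 passed, or 2.08%, against 3.57% in the screen. Adjusted over the screen, none did. The share of calls was no higher than the background. In simulated wells this limma test recovered 24% of AUC differences of 50 units, a size above any guide difference seen here. The simulated guides had 1 fixed spread, near the wide end of these data. Here the SE ran from 10.2 (Mitoxantrone in HCC-38) to 20.3 (Etoposide in HCC-38). The 24% therefore need not hold where the SE was smaller. That none passed does not show that differences of the sizes seen are absent.

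The 4 differences are given with the guides that carry them, in lower case with the 12 bases nearest to the PAM in capitals.

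sgNFE2L2: cacatccaGTCAGAAACCAG

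sgATF4: agatgaccTTCTGACCACGT

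sgSLC35F2: catgacagAGCCATCAACAC

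NFE2L2 encodes NRF2, the factor that switches on antioxidant and detoxifying genes. Under Etoposide sgNFE2L2 cells had an AUC of 100.6 and 88.5 in MDA-MB-231, where sgNT cells had 139.9 and 140.6, a difference of -45.7 ± 12.9 SE (limma adjusted p = 0.214). It was the largest difference of any guide under the 4 compounds. In BT-20 the same guide gave 160.6 and 155.7 against 189.98 and 204.2 of sgNT, a difference of -38.95 ± 19.995 SE (adjusted p = 0.711). The replicates of sgNFE2L2 and sgNT did not overlap in either line. In HCC-38 they did, at 112.2 and 140.1 against 139.2 and 189.5 (-38.2 ± 20.3 SE, adjusted p = 0.742). In SKBR3 the sign was the other one, at 123.8 and 130.002 against 113.7 and 119.6 (10.2 ± 14.02 SE, adjusted p = 0.999). All guides lay above sgNT in SKBR3 under Etoposide, from 1.39 for sgXBP1 to 30.4 for sgHSF2. The sign there is therefore not particular to sgNFE2L2. With the median of all guides as the reference, the sgNFE2L2 difference in MDA-MB-231 under Etoposide was -43.7 and passed in limma (adjusted p = 0.0110). That median entered as a fixed value without a spread of its own, which makes passing easier than against sgNT. The share of the screen that passed with this reference is not given. SLC35F2, a solute carrier, gave 147.8 and 145.2 in SKBR3 under Etoposide against 113.7 and 119.6 of sgNT (29.8 ± 14.02 SE, adjusted p = 0.644). This is again the setting in which all guides lay above sgNT. There sgHSF2 gave 30.4 and sgATF3 22.9 without meeting the thresholds. ATF4, a factor of the unfolded protein and amino acid stress responses, gave 110.9 and 104.3 in MDA-MB-231 under Doxorubicin against 80.2 and 82.1 of sgNT (26.4 ± 10.8 SE, adjusted p = 0.552). Under Mitoxantrone and Topotecan no guide met those thresholds. The largest differences were in ZR-75-1, 31.1 for sgATF4 under Mitoxantrone and 25.4 for sgSLC35F2 under Topotecan, and the latter was -5.61 without replicate 2 of Topotecan. Under Topotecan all tested guides in ZR-75-1 lay above sgNT, by at least the 6.23 of sgATG7.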

How the data were processed

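The authors pooled 5 barcoded lines, treated them, and sequenced the guide and cell line barcode of each well. The deposited counts are reads per barcode pair, demultiplexed with bcl2fastq and matched with up to 1 mismatch. Per the deposited table, relative cell numbers are a ratio in percent: the authors interpolated cells from 5 standards of 293T cells (15 to 1215 cells, log-log line of each well) and divided by the median of the 96 DMSO wells. The deposited doses matched those of the labels. Cell numbers recomputed from the counts gave the 83520 deposited values within 5.32e-05 on the log2 scale. Compounds with few reads and no relative cell numbers were not used here.

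For each well and line the mean over guides was taken, then log2. Differences were tested with limma 3.58.1 in R 4.3.3 (lmFit with moderated variances, two-sided) on all compounds or all pairs of compounds of the same dose range (262140 tests for pairs by line and dose), with Benjamini-Hochberg adjustment over each table. Guide differences were tested on 5150 interactions left by the study's criteria. The functions were tested on simulated wells. These tests recovered 8.02% of AUC differences of 25 units between compounds and 24% of those of 50 units between guides. Of log2 differences of 0.33 from the topoisomerase II mean, 10.8% were recovered.

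Every dose and replicate lay on its own plate, the 4 compounds on plates 1 to 8 and Teniposide and SN38 on others, so dose and plate can be told apart only through the 6 DMSO wells of a plate. Plates of compound wells were taken from blocks of 96 in sequencing order, which gave the labelled plate of all 96 DMSO wells. The labels of DMSO wells tie replicate number to plate, and the replicate block rests on that. Replicate differences (20 lines and doses) correlated by -0.28 to 0.74 between the 4 compounds.

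The named items are the 4 compounds in all lines and doses, Teniposide and SN38, the 3 nearest compounds of each, and guides past a threshold or, where a compound had none, with its largest difference. Members and lists were chosen with earlier results of these data known. The comparison of line differences between compounds was added after the values were seen. Alternatives were DMSO wells of the same plate, sgNT alone, all guides in ZR-75-1, the median over guides, summed cells, a floor at the lowest standard, the percent scale, the replicate block, each replicate left out, only the 4 compounds, the methods' t-test and another guide reference. Reads carry no molecular identifiers.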

Additional observations from a re-analysis of the deposited data

Results flagged for a closer look

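The AUC difference of Topotecan from Doxorubicin in HCC-38 lay at -37.2 relative to its mean in the other 4 lines (limma adjusted p = 0.0461 over all pairs and lines). Of 30 such differences among the 4 compounds it was the only 1 that passed, against 16.8% in the screen. It is listed because the difference between lines was tested itself. The test was chosen after the values were seen, and the call was lost when any replicate of either compound was left out, with sgNT alone (adjusted p = 0.685), with all 12 guides in ZR-75-1 (0.0526) and with DMSO wells of the same plate (0.0874).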

How the results depend on the processing

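Of the values recomputed for 87 results, 830 kept their direction and their side of the threshold (counts: stayed within 1.5 times), 59 were weaker, 16 stronger, 57 counts moved and 9 changed sign. With 2 wells a dose, a replicate left out in the tests against DMSO or between lines leaves 1 well, whose spread is taken from other compounds. Guide values under the lowest standard are extrapolated. The cause of the changes below was not tested.

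With sgNT alone, 4 steps passed for Topotecan, 5 for Doxorubicin, 4 for Mitoxantrone and 3 for Etoposide, and 0 lines differed from the others for any of them. Topotecan and Doxorubicin then differed at 0 combinations of line and dose and in 0 lines by AUC, Topotecan and Mitoxantrone in 0 lines, Doxorubicin and Mitoxantrone in 0 lines, Topotecan and Etoposide at 8 combinations and in 2 lines, Doxorubicin and Etoposide at 6 and in 2, Etoposide and Teniposide at 4 and in 1, and Topotecan and the mean of the topoisomerase II poisons at 2 combinations. On the percent scale 6 steps passed for Topotecan and 5 for Etoposide, and over the lines Topotecan and Mitoxantrone differed at 1 dose and Doxorubicin and Mitoxantrone at 1. With DMSO wells of the same plate 1 line differed for Doxorubicin, with the median over guides 1 for Etoposide, and with the mean log2 over doses, chosen after seeing the data, 4 for Etoposide.

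With the replicate block, Topotecan and Doxorubicin differed at 5 combinations, Topotecan and Mitoxantrone at 13, Doxorubicin and Mitoxantrone at 18, Topotecan and the topoisomerase II mean at 8 combinations and in 2 lines by AUC, and Etoposide and Teniposide in 5 lines by AUC. With the median of guides as the reference, a fixed value without its own spread, 1 guide passed. By the methods' t-test 4 did.

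With 1 replicate left out, the lines called were 0 for each compound. Over the lines, Topotecan and Doxorubicin differed at 0 to 1 doses, Topotecan and Mitoxantrone at 1 to 4 and Doxorubicin and Mitoxantrone at 2 to 4. By line and dose the counts were 3 to 13 for Topotecan and Mitoxantrone, 6 to 15 for Doxorubicin and Mitoxantrone, 7 for Etoposide and Teniposide and 3 to 7 for Topotecan against the topoisomerase II mean, and by AUC 1 to 4 lines for Topotecan and Mitoxantrone and 1 to 2 for Topotecan against that mean.

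None of the 9 values that changed sign had passed. With 1 replicate left out, Topotecan minus Doxorubicin at 10000 nM ran from -0.49 to 0.056, the latter without replicate 1 of Doxorubicin, and Topotecan minus Mitoxantrone at that dose from -0.043 to 0.78, the former without replicate 2 of Mitoxantrone. Topotecan minus Etoposide at 10 nM ran from -0.12 to 0.27, negative without replicate 1 of Etoposide and without replicate 2 of Topotecan (-0.08), and was -0.12 with sgNT alone. Topotecan minus the topoisomerase II mean by AUC ran from -18.4 to 1.60 in ZR-75-1 and from -15.9 to 1.79 in MDA-MB-231, positive without replicate 1 of Topotecan, and was 3.80 in MDA-MB-231 with sgNT alone. The sgSLC35F2 difference under Topotecan in ZR-75-1 ran from -5.61 to 56.5.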
